A study of Mus musculus with 2 samples.

Results

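Wnt ligands, R-spondins and secreted Wnt antagonists are the extracellular inputs of Wnt signalling. 9 such genes were followed across the cells of the mouse mesentery: the ligands Wnt5a and Wnt11, the R-spondins Rspo1 and Rspo3, the secreted frizzled-related proteins Sfrp1, Sfrp2 and Sfrp4, and the Dickkopf proteins Dkk2 and Dkk3. They were chosen by symbol among the 27998 genes of the deposited matrix, and all 9 matched 1 row. Whole mesentery of 2 untreated, wild-type male C57BL/6N mice was digested with Liberase DH, and the cells were captured with version 2 of the Chromium 3′ chemistry, 1 library per mouse. Both mice belong to 1 group, the labels do not state their age at collection, and the comparisons below are between cell types of the same 2 animals. After filtering, 3100 cells were analysed, 1445 in library 1 and 1655 in library 2.

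Wnt proteins are secreted with the help of the carrier Wls and bind Frizzled receptors. With the co-receptors Lrp5 and Lrp6 they stabilise β-catenin, whereas Wnt5a and Wnt11 act mostly through routes that do not need β-catenin. R-spondins bind Lgr receptors together with the ubiquitin ligases Znrf3 and Rnf43 and so keep Frizzled receptors at the cell surface. Secreted frizzled-related proteins bind Wnt ligands outside the cell, Dkk2 binds the Lrp co-receptors, and Dkk3 is a divergent Dickkopf protein. In the mesentery, fibroblasts form the connective tissue core and the mesothelium is the flat epithelium that lines its surface.

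The cells fell into 17 clusters, which were named from marker genes, and the 9 genes and the other Wnt genes examined were kept out of the genes that defined them. The text uses 11 classes, among them 995 fibroblast-like cells (463 and 532 in libraries 1 and 2) and 243 mesothelial-like cells (67 and 176). Levels are given as CPM: the unique molecular identifiers (UMIs) of a gene, summed over the cells of a class in 1 library divided by all UMIs of those cells and multiplied by 1000000. The 10 mesothelial markers, Msln and Upk3b among them, summed to 5811 and 5497 CPM in mesothelial-like cells of libraries 1 and 2, and to 5.74 and 12.8 CPM in fibroblast-like cells. The 10 fibroblast markers, which are collagens and other matrix genes, summed to 20435 and 19189 CPM in fibroblast-like cells and also to 14984 and 13877 CPM in mesothelial-like cells. The libraries held 5137671 and 5563521 UMIs, with 0 cell barcodes in common, and the median UMI count was 3390 for the fibroblast-like and 6123 for the mesothelial-like class. The pericyte-like class also carried endothelial markers, which summed to 20616 and 15990 CPM there, so its values are those of a mixed class.

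The mesothelial genes Rspo1 and Sfrp2 and the ligand Wnt11, which was found in leukocytes as well as in stromal cells, are shown with the 250 bases before their RefSeq transcription start (assembly GRCm38.p6, plus strand, written 5′ to 3′). The windows are chr4:124986180-124986429 for Rspo1, chr3:83766071-83766320 for Sfrp2 and chr7:98834862-98835111 for Wnt11. RefSeq promoters were matched for 4 of the 9 genes. Capitals mark any match, on either strand, to a TCF/LEF motif or to the TATA motif. The TCF/LEF motif was searched as CTTTG followed by AA, by AT, by TA or by TT, and the TATA motif as TATAAA. The form ending in TA can share its last letters with a TATAAA, but the matches marked here do not overlap.
Rspo1: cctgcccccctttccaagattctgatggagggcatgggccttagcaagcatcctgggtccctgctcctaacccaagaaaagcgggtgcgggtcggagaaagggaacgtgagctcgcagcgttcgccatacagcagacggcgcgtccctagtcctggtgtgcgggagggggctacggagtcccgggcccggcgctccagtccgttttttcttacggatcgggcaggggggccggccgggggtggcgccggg
Sfrp2: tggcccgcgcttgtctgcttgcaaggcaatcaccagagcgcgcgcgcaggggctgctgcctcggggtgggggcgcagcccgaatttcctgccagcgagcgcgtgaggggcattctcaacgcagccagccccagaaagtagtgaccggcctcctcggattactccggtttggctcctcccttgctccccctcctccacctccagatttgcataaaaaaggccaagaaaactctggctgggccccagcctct
Wnt11: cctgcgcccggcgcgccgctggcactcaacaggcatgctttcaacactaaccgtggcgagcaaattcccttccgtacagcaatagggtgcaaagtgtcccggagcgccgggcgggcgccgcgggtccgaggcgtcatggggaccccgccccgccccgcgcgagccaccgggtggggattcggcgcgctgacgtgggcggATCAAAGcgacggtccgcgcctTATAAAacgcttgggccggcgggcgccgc
The Wnt11 window held 1 TCF/LEF match on the minus strand, CTTTGAT, beginning 51 bases before the start, and 1 TATAAA beginning 29 bases before it. RefSeq gives Wnt11 a further start, and its window (chr7:98838595-98838844, not printed) held 0 matches to either motif. Windows of equal length held a TCF/LEF match in 14.8% and a TATAAA in 12.4% of 32851 RefSeq promoters. The Rspo1 and Sfrp2 windows held neither set of letters; G and C made up 66.8% and 63.6% of them, against a median of 52.4% over all promoters. These matches describe letters in the windows and no binding was measured.

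Fibroblast-like and mesothelial-like cells differed in their levels of most of the 9 genes. Rspo1, Sfrp2 and Dkk3 were higher in mesothelial-like cells, Rspo3, Sfrp1, Sfrp4 and Wnt11 were higher in fibroblast-like cells, and Wnt5a was found in both at levels that overlapped. The difference was tested on summed counts with edgeR's quasi-likelihood test, with library as a block and Benjamini-Hochberg adjustment over 7723 genes. Of all genes tested, 33.7% were called at an adjusted p of 0.05, 17.0% higher in fibroblast-like cells and 16.7% lower. Of the 8 Wnt genes with enough counts to be tested, 4 were called higher, 3 lower and 1 was not called, and their median log2 fold change was 0.71 against -0.00 over all genes. Dkk2 did not pass the filter on low counts. The p-values measure the spread that remains between the libraries of 2 animals once their shared difference is removed, pooled over all classes.

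**Figure D1:**
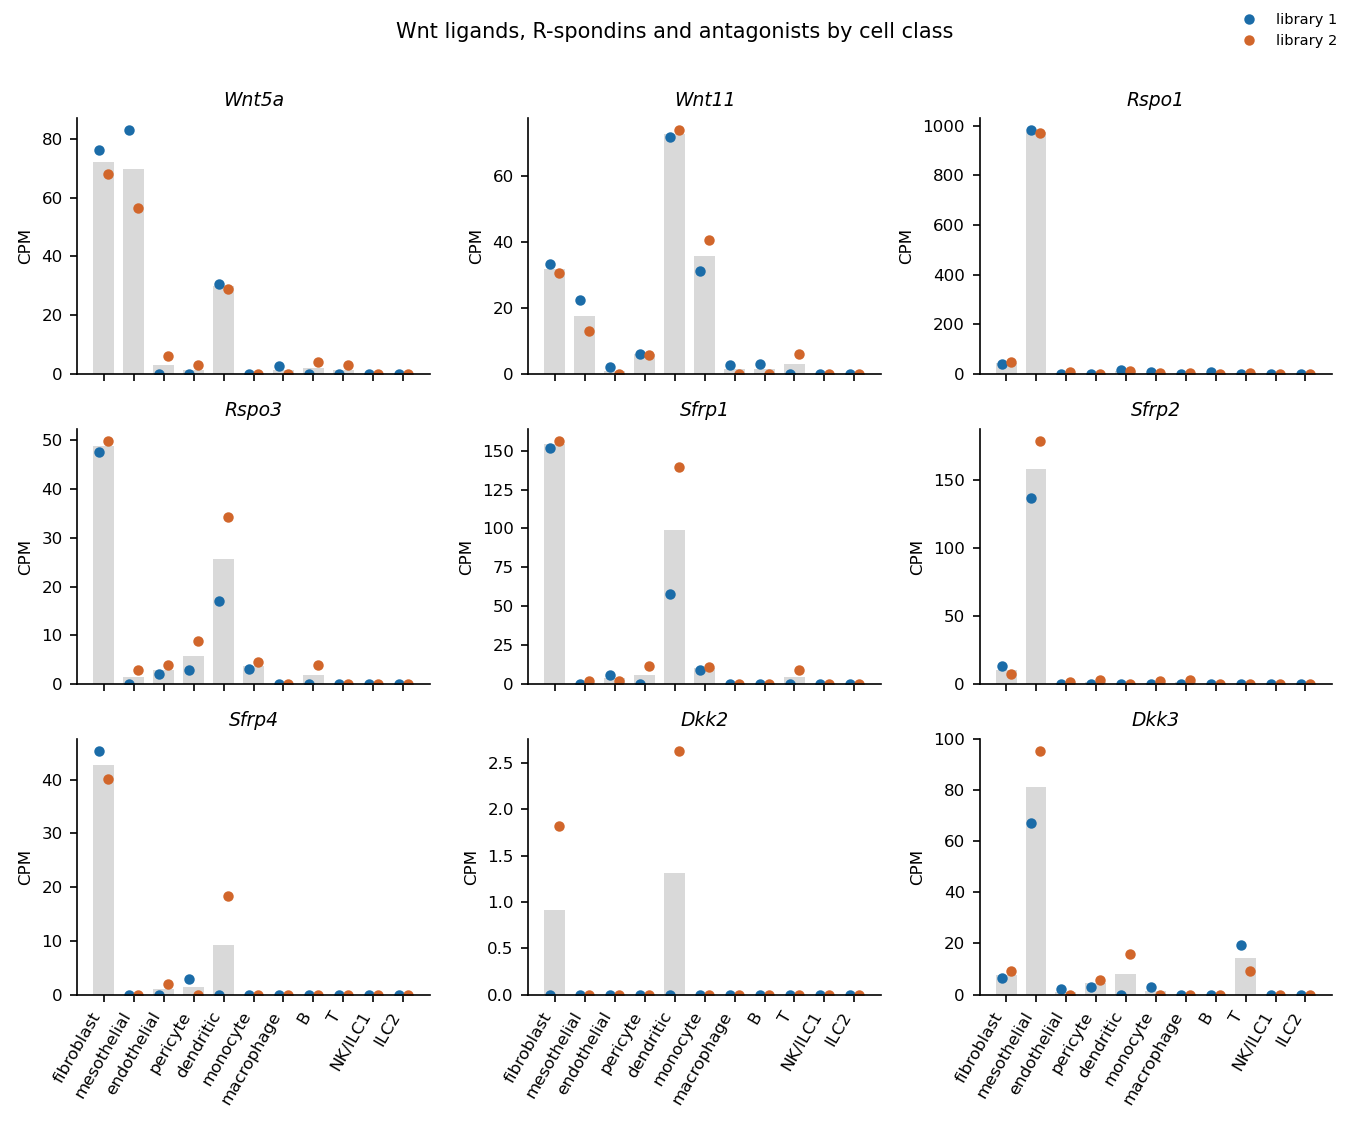
Level of each gene in CPM (y axis, its own scale in each panel) in the 11 cell classes (x axis). Points are the 2 libraries and grey bars their mean. Rspo1, Sfrp2 and Dkk3 stand highest in the mesothelial class, Rspo3, Sfrp1 and Sfrp4 in the fibroblast class, and Wnt11 in the dendritic class.

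Among the ligands, Wnt5a, which guides cell polarity and migration, was measured at 76.3 and 68.1 CPM in fibroblast-like cells of libraries 1 and 2 and at 82.8 and 56.6 CPM in mesothelial-like cells. The libraries of both classes overlap. The log2 fold change was 0.28 (SE 0.24) and was not called by edgeR (adjusted p = 0.412); this does not show that the levels are equal. Together the 2 classes held 245 and 94 of the 368 Wnt5a UMIs found in all cells. The next class was the dendritic-like one, at 30.7 and 28.9 CPM, and endothelial-like, B-like, T-like, macrophage-like and pericyte-like cells held 1 to 3 UMIs each. All 20 Wnt5a UMIs of the dendritic-like class lay in 46 of its cells that also carried fibroblast markers. Monocyte-like, NK/ILC1-like and ILC2-like cells held 0 Wnt5a UMIs, where the limit that a count of 0 allows (3 counts) is 9.37 CPM for monocyte-like cells of library 1. The limits in libraries 1 and 2 are 22.2 and 25.6 CPM for ILC2-like cells and 34.1 and 46.3 CPM for NK/ILC1-like cells. Those of NK/ILC1-like cells exceed the dendritic-like level, so a lower level there is not shown.

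Wnt11, the other ligand, was spread more widely. Fibroblast-like cells had 33.3 and 30.4 CPM and mesothelial-like cells 22.4 and 12.9 CPM. Both fibroblast values lie above both mesothelial ones. The difference of 1.13 on the log2 scale (SE 0.37), or 2.19-fold, was called by edgeR (adjusted p = 0.0156) but not by DESeq2's Wald test (adjusted p = 0.0804). Dendritic-like cells stood above both, at 71.7 and 73.7 CPM, from 21 and 28 UMIs. Monocyte-like cells, at 31.2 and 40.4 CPM, overlapped with fibroblast-like cells. These leukocyte levels were not tested against the stromal ones.

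Rspo1, an R-spondin known for its part in ovary development, stood out in the mesothelium. It reached 980.4 and 970.5 CPM in mesothelial-like cells, from 438 and 978 UMIs, and 40.7 and 47.4 CPM in fibroblast-like cells. The libraries within each class are close and the classes are far apart. Rspo1 was 19.5-fold lower in fibroblast-like cells (edgeR log2 fold change -4.28, SE 0.22, adjusted p = 1.41e-18). Of the 1592 Rspo1 UMIs in all cells, 1416 lay in the mesothelial-like and 149 in the fibroblast-like class. Dendritic-like cells followed at 17.1 and 10.5 CPM, and the 8 remaining classes stayed between 0 and 7.97 CPM. All 9 Rspo1 UMIs of the dendritic-like class lay in cells that also carried fibroblast markers. In NK/ILC1-like cells the count of 0 allows up to 34.1 and 46.3 CPM.

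Shares of cells with a Rspo1 UMI gave the same order. Before thinning, 95.1% of mesothelial-like, 12.3% of fibroblast-like and 0.590% of T-like cells held at least 1 UMI, with median depths of 6123, 3390 and 1617 UMIs. The share in T-like cells was taken as the background that free RNA can leave. After thinning every cell to 1000 UMIs, which left out 1 shallower mesothelial-like cell in each library, the mesothelial share was 53.0% in library 1 (exact 95% interval 40.3 to 65.4) and 56.6% in library 2 (48.9 to 64.0). The thinned share of fibroblast-like cells was 3.72% (2.18 to 5.89) and 3.71% (2.25 to 5.73). That of T-like cells was 0 of 157 (0 to 2.32%) and 1 of 162 (0.0156 to 3.39%). The exact thinned intervals of fibroblast-like and T-like cells overlap, while their CPM do not. By the limit of 3 counts, the 0 of 157 allows up to 1.91%, which lies below the fibroblast-like interval of library 1.

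Rspo3, the other R-spondin, had the opposite distribution. Fibroblast-like cells had 47.6 and 49.9 CPM. Mesothelial-like cells had 0 UMIs in library 1 and 3 UMIs, or 2.98 CPM, in library 2. Fibroblast-like cells were therefore at least 7.09-fold higher in library 1, against the limit of 3 counts, and 16.8-fold higher in library 2 (exact 95% interval 5.54 to 82.9, counting error only). edgeR called the difference (adjusted p = 1.02e-08). Of the 205 Rspo3 UMIs in all cells, 165 lay in fibroblast-like cells, and after thinning 4.38% and 5.86% of these cells held a UMI against 0 of 66 and 0 of 175 mesothelial-like cells. Those counts of 0 allow shares of up to 4.55% and 1.71%.

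The 3 secreted frizzled-related proteins, which bind Wnt ligands, were split between the classes. Sfrp1 was measured at 152 and 156 CPM in fibroblast-like cells. Mesothelial-like cells held 0 and 2 Sfrp1 UMIs. Sfrp1 was thus at least 22.6-fold higher in fibroblast-like cells of library 1 and 78.8-fold higher in library 2 (interval 21.6 to 654), and edgeR called the difference (adjusted p = 1.37e-14). After thinning, a Sfrp1 UMI was found in 12.3% and 13.9% of fibroblast-like cells and in 0 of 157 and 0 of 162 T-like cells.

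Sfrp2 lay on the mesothelial side, at 137 and 179 CPM, against 13.2 and 7.30 CPM in fibroblast-like cells. The library with more mesothelial-like cells was also the one with the higher mesothelial level. Sfrp2 was 13.3-fold lower in fibroblast-like cells (edgeR log2 fold change -3.73, SE 0.29, adjusted p = 5.88e-13). Of 280 Sfrp2 UMIs in all cells, 241 lay in the mesothelial-like and 35 in the fibroblast-like class, and each of the 9 other classes held 0 or 1. Before thinning 48.6% of mesothelial-like and 2.71% of fibroblast-like cells held a Sfrp2 UMI, and 0 of 339 T-like cells did. With each cell thinned to 1000 UMIs, the mesothelial-like share was 4.55% (exact 95% interval 0.947 to 12.7) in library 1 and 16.6% (11.4 to 22.9) in library 2. The fibroblast-like share was then 0.656% (0.136 to 1.91) and 0.195% (0.00494 to 1.08), so the intervals overlap in library 1 and not in library 2.

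Sfrp4 was found mostly in fibroblast-like cells, where it had 45.3 and 40.1 CPM from 79 and 66 UMIs. Mesothelial-like cells held 0 Sfrp4 UMIs in both libraries. The level in fibroblast-like cells was at least 6.75-fold higher in library 1 and at least 13.5-fold higher in library 2. edgeR called the difference (adjusted p = 1.37e-07), whereas DESeq2's Wald test did not (adjusted p = 0.505). Of the 155 Sfrp4 UMIs in all cells, 145 were in fibroblast-like and 7 in dendritic-like cells. Those 7 lay in cells that also carried fibroblast markers.

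Dkk3, the divergent Dickkopf protein, had 67.2 and 95.3 CPM in mesothelial-like cells and 6.31 and 9.12 CPM in fibroblast-like cells. Both mesothelial libraries lie above both fibroblast ones. The gene was 9.11-fold lower in fibroblast-like cells (edgeR log2 fold change -3.19, SE 0.38, adjusted p = 1.10e-08). T-like cells came next to the mesothelium, at 19.5 and 9.07 CPM, and overlapped with dendritic-like cells. Within the T-like class, the cluster led by Cd163l1, of 88 cells, held 6 and 2 Dkk3 UMIs, or 104 and 25.0 CPM with exact 95% intervals of 38.3 to 227 and 3.03 to 90.3. The other T-like cluster held 0 and 1. These counts are small and were not tested.

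Dkk2, an inhibitor of the Lrp co-receptors, was close to undetected. It gave 5 UMIs in all cells, all in library 2: 3 in fibroblast-like cells, 1 in a dendritic-like cell and 1 in the unnamed cluster of 26 cells. In the 463 fibroblast-like cells of library 1 the count of 0 allows up to 1.72 CPM.

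**Figure D2:**
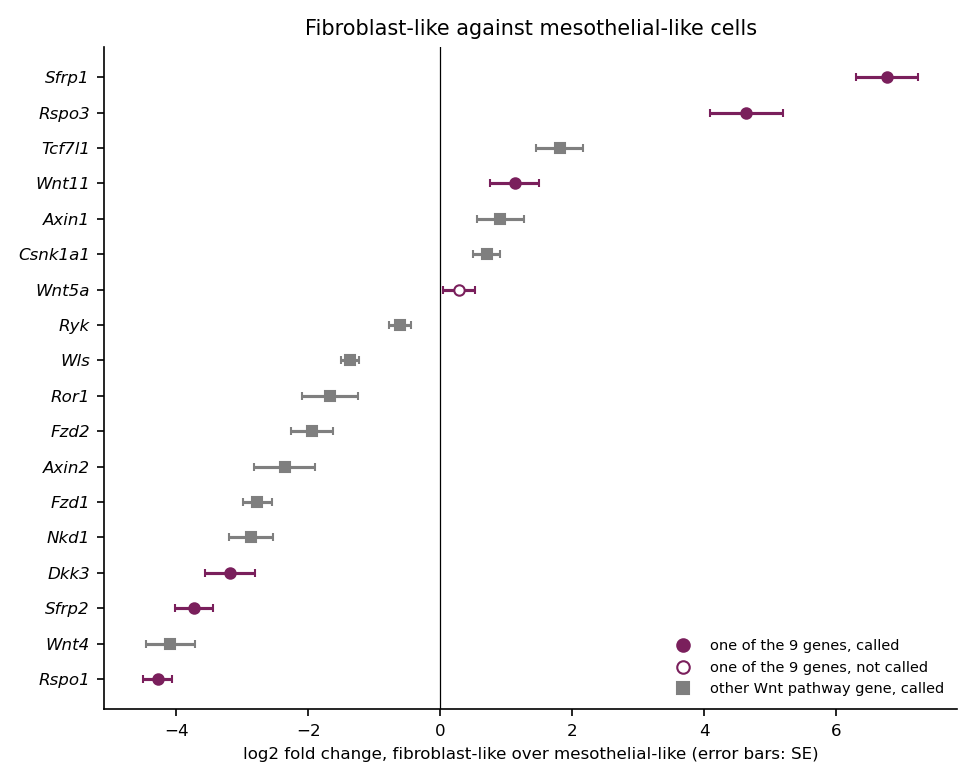
Log2 fold change of fibroblast-like over mesothelial-like cells (x axis) with its SE (bars) from edgeR. Circles are the genes followed here, filled where called, and grey squares the other Wnt pathway genes that were called. Rspo1 at -4.28 lies at 1 end and Sfrp1 at 6.78 at the other; Sfrp4, with 0 UMIs in the mesothelial class, has no finite fold and is not drawn.

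Against the mean of the other 10 classes, 49.5% of the 7723 genes were called by edgeR, 35.8% higher and 13.8% lower in fibroblast-like cells. All 8 Wnt genes tested were called higher there by edgeR. DESeq2's Wald test did not call Sfrp4 (adjusted p = 0.384) or Dkk3 (adjusted p = 0.0687), and edgeR with a stricter cell filter did not call Dkk3 (adjusted p = 0.0613). This contrast is a mean of logarithms, in which a single class with a very high level has little weight. Classes with 0 UMIs count fully, also where their limit of 3 counts lies above the fibroblast-like level. Sfrp2 and Dkk3 gave 0 UMIs in ILC2-like cells (limits of 22.2 and 25.6 CPM) and NK/ILC1-like cells (34.1 and 46.3 CPM). Fibroblast-like cells had 13.2 and 7.30 CPM of Sfrp2 and 6.31 and 9.12 CPM of Dkk3, so a lower level in those classes is not shown. Nor is it shown for Dkk3 in B-like cells (0 UMIs, limits of 9.37 and 11.8 CPM) or macrophage-like cells (8.62 and 10.2 CPM). Wnt11 also gave 0 UMIs in NK/ILC1-like cells, whose limits lie above the fibroblast-like 33.3 and 30.4 CPM. By mean level, Dkk3 was higher in mesothelial-like, T-like and dendritic-like cells than in fibroblast-like cells. T-like cells (19.5 and 9.07 CPM) and dendritic-like cells (0 and 15.8 CPM) overlapped with fibroblast-like cells, so a higher level there is not shown. When the cells of the other classes were summed instead, edgeR called Rspo1 (log2 fold change -2.03, adjusted p = 7.78e-08), Sfrp2 (-1.52, adjusted p = 0.00275) and Dkk3 (-1.24, adjusted p = 0.00439) lower in fibroblast-like cells. The direction for those 3 genes thus differed between the contrasts. The part of any 1 class in this was not tested.

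The fibroblast-like class comprised 4 clusters, named here by the gene with the largest fold over all other cells of the tissue. They were led by Cxcl14, a chemokine (326 cells), Has1, a hyaluronan synthase (260 cells), Pi16 (247 cells) and Mfap4, a microfibril-associated protein (162 cells). Each was set against the mean of the remaining 3 over 5871 genes, again with edgeR and library as a block. 6 of the 9 genes had enough counts for this test, while Sfrp2, Dkk2 and Dkk3 did not. The clusters were defined from the same cells, without the Wnt genes, so these tests are not independent of genes that vary together with the ones used.

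**Figure D3:**
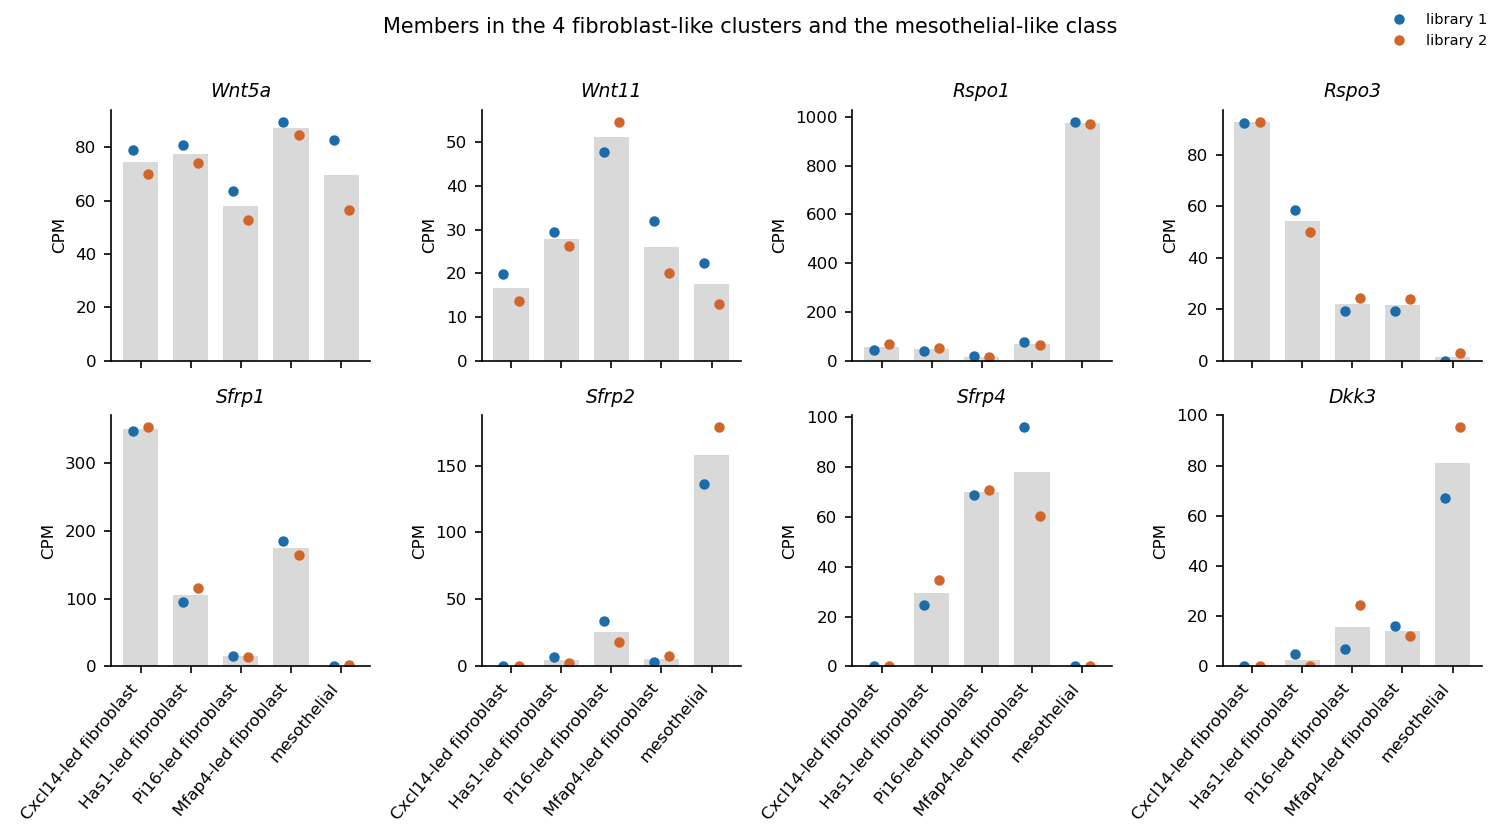
Level in CPM (y axis, its own scale in each panel) of 8 genes in the 4 fibroblast-like clusters and the mesothelial-like class (x axis). Points are the 2 libraries and grey bars their mean. Sfrp1 and Rspo3 are highest in the Cxcl14-led cluster, Sfrp4 in the Mfap4-led and Pi16-led clusters, and Wnt5a is similar in height throughout.

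The Cxcl14-led cluster carried most Sfrp1 and Rspo3. Sfrp1 was at 347 and 353 CPM there, against 186 and 165 in the Mfap4-led, 95.4 and 115 in the Has1-led and 15.9 and 14.2 in the Pi16-led cluster. No cluster overlapped with another. Rspo3 was at 92.3 and 92.8 CPM in the Cxcl14-led cluster, 58.7 and 50.1 in the Has1-led, 19.4 and 24.3 in the Pi16-led and 19.2 and 24.1 in the Mfap4-led cluster. The last 2 overlapped. Sfrp4 gave 0 UMIs in the 326 cells of the Cxcl14-led cluster, and was at least 10.5- and 10.4-fold higher in the Pi16-led cluster of libraries 1 and 2. In this cluster edgeR called 15.6% of genes, 9.10% higher and 6.46% lower. Of the 6 Wnt genes, Sfrp1 (log2 fold change 2.45, SE 0.15, adjusted p = 9.79e-15) and Rspo3 (1.69, SE 0.24, adjusted p = 1.47e-06) were called higher and Sfrp4 lower (adjusted p = 1.59e-08), and 3 were not called.

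The Pi16-led cluster was the reverse for several of these genes. edgeR called 22.5% of genes there, 11.1% higher and 11.4% lower, and 5 of the 6 Wnt genes. Sfrp1 was lower by 12.6-fold (log2 fold change -3.66, SE 0.25, adjusted p = 5.00e-14). Rspo1, at 17.7 and 14.2 CPM against 41.6 to 76.8 CPM across the other clusters and libraries, was lower too (-1.88, SE 0.32, adjusted p = 2.24e-05). Rspo3 was lower (-1.18, SE 0.32, adjusted p = 0.00517), but not by DESeq2 (adjusted p = 0.152). Wnt11 was higher, at 47.7 and 54.6 CPM against 13.6 to 32.0 CPM elsewhere (1.08, SE 0.29, edgeR adjusted p = 0.00608), but not by DESeq2 (adjusted p = 0.264). Sfrp4 was higher as well (edgeR adjusted p = 1.78e-06), at 68.9 and 70.8 CPM. Of the 35 Sfrp2 UMIs in fibroblast-like cells, 28 lay in this cluster, at 33.6 and 18.2 CPM, and so did 16 of the 26 Dkk3 UMIs, at 7.07 and 24.3 CPM. The whole fibroblast-like class had 6.31 and 9.12 CPM of Dkk3, so in library 1 the cluster was close to the class. Neither Sfrp2 nor Dkk3 was tested in this cluster. The summed mesothelial markers were at 5.30 and 14.2 CPM in this cluster and between 4.39 and 13.6 CPM in the others.

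In the Mfap4-led cluster edgeR called 5.76% of genes, 4.02% higher and 1.74% lower. Sfrp4, at 96.0 and 60.3 CPM, was called higher (adjusted p = 4.71e-06), as was Sfrp1 (log2 fold change 1.08, SE 0.20, adjusted p = 2.52e-04). The 2 libraries for Sfrp4 overlap with those of the Pi16-led cluster. Rspo1, at 76.8 and 64.4 CPM, was called higher (1.01, SE 0.29, edgeR adjusted p = 0.0296), but not without the library block (adjusted p = 0.0566), without the filter on low counts (adjusted p = 0.0754) or by DESeq2 (adjusted p = 0.587). Its libraries overlap with those of the Cxcl14-led cluster, at 43.9 and 67.9 CPM.

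In the Has1-led cluster edgeR called 2.10% of genes (1.62% higher and 0.477% lower) and 0 of the 6 Wnt genes, 2 of which had an unadjusted p under 0.05. DESeq2 called 0 as well. Rspo3 had a log2 fold change of 0.65 (edgeR adjusted p = 0.314), and Sfrp4 stood at 24.5 and 34.8 CPM (adjusted p = 0.304).

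Wnt5a was not called in any of the 4 clusters by edgeR, with log2 fold changes from -0.50 (SE 0.21, adjusted p = 0.0898) in the Pi16-led to 0.30 (SE 0.24, adjusted p = 0.564) in the Mfap4-led cluster. It was measured between 52.6 and 89.6 CPM over the 8 sums of cluster and library.

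Dendritic-like cells held UMIs of Sfrp1, Wnt5a, Rspo3, Rspo1 and Sfrp4 beside Wnt11, and these were unevenly spread among the 126 cells. The 10 fibroblast markers summed to 3775 and 6701 CPM in this class, against 84.3 and 544 CPM in T-like cells. At a threshold of 0.3% of a cell's UMIs in those markers, chosen after the data were seen, 46 cells lay at or above it and 80 below, with 2 cells between 0.2% and 0.4%. The 46 cells held all 70 Sfrp1, 20 Wnt5a, 18 Rspo3, 9 Rspo1 and 7 Sfrp4 UMIs of the class, and the 80 cells held 0 of each. The 80 cells instead held 41 of the 49 Wnt11 UMIs, in 26 cells. Their Wnt11 level was 108 CPM in library 1 (exact 95% interval 65.0 to 169) and 120 CPM in library 2 (75.2 to 182), and that of the 46 cells was 17.1 (2.07 to 61.9) and 30.5 CPM (11.2 to 66.4). Dkk3 did not follow this split, with 2 UMIs in the 46 cells and 4 in the 80. The 1 Dkk2 UMI of the class lay in the 46 cells. The 46 cells had a median of 6437 UMIs and the 80 cells one of 4682. Whether the 46 barcodes each hold more than 1 cell was not tested; the doublet caller had removed 39 barcodes from library 1 and 4 from library 2.

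**Figure D4:**
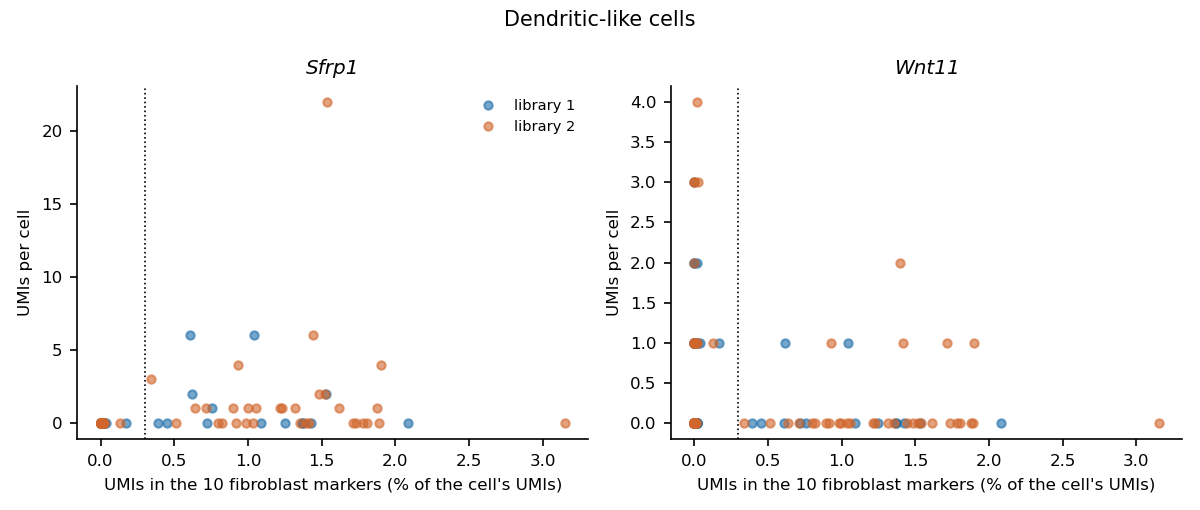
UMIs per cell of Sfrp1 and Wnt11 (y axis) in the 126 dendritic-like cells against the percentage of the cell's UMIs in 10 fibroblast markers (x axis). Each point is a cell, coloured by library, and the dotted line marks 0.3%. Sfrp1 UMIs lie to the right of the line, and 41 of 49 Wnt11 UMIs to its left.

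In the monocyte-like class, the 11 cells at or above the threshold held all 8 Sfrp1 and all 3 Rspo3 UMIs, and 1 of 4 Rspo1 UMIs. The 154 cells below it held 22 of 28 Wnt11 UMIs, at 34.1 and 30.1 CPM. The 11 cells held 0 Wnt11 UMIs in library 1 and 6 in library 2, there at 126.5 CPM with an exact 95% interval of 46.4 to 275. That interval overlaps the one of the library 2 cells below the threshold (15.6 to 52.6), and the lower Wnt11 level seen in marker-high dendritic-like cells was not seen here in library 2. Of the clusters in this class, the one led by Lyz1 held 25 of the 28 Wnt11 UMIs, at 37.0 and 54.8 CPM. The macrophage-like class held 1 Wnt11 UMI in 251 cells.

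Levels across the 28 sums of library and class, with the fibroblast-like class split into its clusters, were correlated as log2(CPM + 1). These correlations describe the sums, which share libraries and differ in depth. Among the 9 genes, Rspo3 and Sfrp1 were most alike (Pearson r = 0.911), followed by Wnt5a and Rspo1 (r = 0.816). Sfrp1 and Sfrp2 had an r of 0.0466. Over all genes with at least 100 UMIs, Sfrp1 was most like Gdf10 (r = 0.952), Cyp1b1 (r = 0.950) and Inmt (r = 0.946). Rspo3 was most like Ctsk (r = 0.938), Scn7a (r = 0.938) and Gsn (r = 0.919), and Sfrp4 most like Col8a1 (r = 0.883), Has2 (r = 0.869) and Cilp (r = 0.863). Rspo1 was most like Col4a5, a basement membrane collagen (r = 0.927), Aebp1 (r = 0.921) and Ccbe1 (r = 0.902), and Sfrp2 most like Fam46b (r = 0.888), Adgrg2 (r = 0.882) and the growth factor Fgf1 (r = 0.870). Wnt5a was most like C1ra (r = 0.947), Cpxm1 (r = 0.938) and Ptgis (r = 0.937). Wnt11 was most like Tmtc2 (r = 0.899), Vim (r = 0.858) and Magt1 (r = 0.853), and Dkk3 most like Zfp462 (r = 0.775), Gdpd5 (r = 0.746) and Tmem151a (r = 0.744). Dkk2, with 4 UMIs over these sums, reached no r above 0.556.

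The rest of the pathway was described with 76 further Wnt genes, of which 25 were tested in the comparison of fibroblast-like with mesothelial-like cells. edgeR called 3 of them higher in fibroblast-like cells and 8 lower, beside 17.0% and 16.7% of all genes tested, and 14 were not called. Their median log2 fold change was -0.19 over the 23 genes with more than 3 UMIs in either class, beside -0.00 over all genes. Wnt4, a ligand that can act through β-catenin, was at 67.2 and 122 CPM in mesothelial-like cells and at 3.44 and 6.08 CPM in fibroblast-like cells (edgeR log2 fold change -4.09, SE 0.37, adjusted p = 7.00e-12). The carrier Wls was at 369 and 323 CPM against 117 and 117 (-1.37, SE 0.14, adjusted p = 1.28e-10).

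Of the receptors, Fzd1 was at 177 and 188 CPM in mesothelial-like cells and at 21.2 and 24.9 CPM in fibroblast-like cells (edgeR log2 fold change -2.78, SE 0.22, adjusted p = 3.12e-13). Fzd2 (-1.94, SE 0.32, adjusted p = 5.64e-06), Ror1 (-1.67, SE 0.42, adjusted p = 0.00198), a receptor for Wnt5a, and Ryk (-0.61, SE 0.16, adjusted p = 0.00291) were lower in fibroblast-like cells by edgeR as well; DESeq2 did not call Ror1 (adjusted p = 0.185). The co-receptors Lrp5 and Lrp6 were not called. Lgr4, which binds R-spondins, was at 10.3 and 9.73 CPM in fibroblast-like and 11.2 and 9.92 CPM in mesothelial-like cells and was too low to be tested. Lgr5 gave 3 UMIs in all cells, Rnf43 gave 4 and Lgr6 gave 0.

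2 genes that β-catenin signalling commonly induces and that restrain it in turn were called lower in fibroblast-like cells by edgeR. Axin2 was at 8.03 and 4.87 CPM there against 38.1 and 37.7 CPM in mesothelial-like cells (edgeR log2 fold change -2.36, SE 0.46, adjusted p = 6.85e-05). Nkd1 was at 7.46 and 13.4 CPM against 69.4 and 104 CPM (-2.87, SE 0.34, adjusted p = 1.12e-08). Tnfrsf19, listed with them, gave 40 of its 45 UMIs in mesothelial-like cells, at 24.6 and 28.8 CPM, and 0 in fibroblast-like cells, but was too low to be tested. Nkd2, of the same list and also untested, gave 31 of its 51 UMIs in fibroblast-like cells, at 10.9 and 7.30 CPM, and 7 in mesothelial-like cells, at 2.24 and 5.95 CPM. The kinase Csnk1a1 (0.70, SE 0.21, adjusted p = 0.00608) and the factor Tcf7l1 (1.81, SE 0.36, adjusted p = 8.50e-05) were higher in fibroblast-like cells. Axin1 was called higher (0.91, SE 0.36, edgeR adjusted p = 0.0439), a call that held under 4 of 10 alternative settings.

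**Figure D5:**
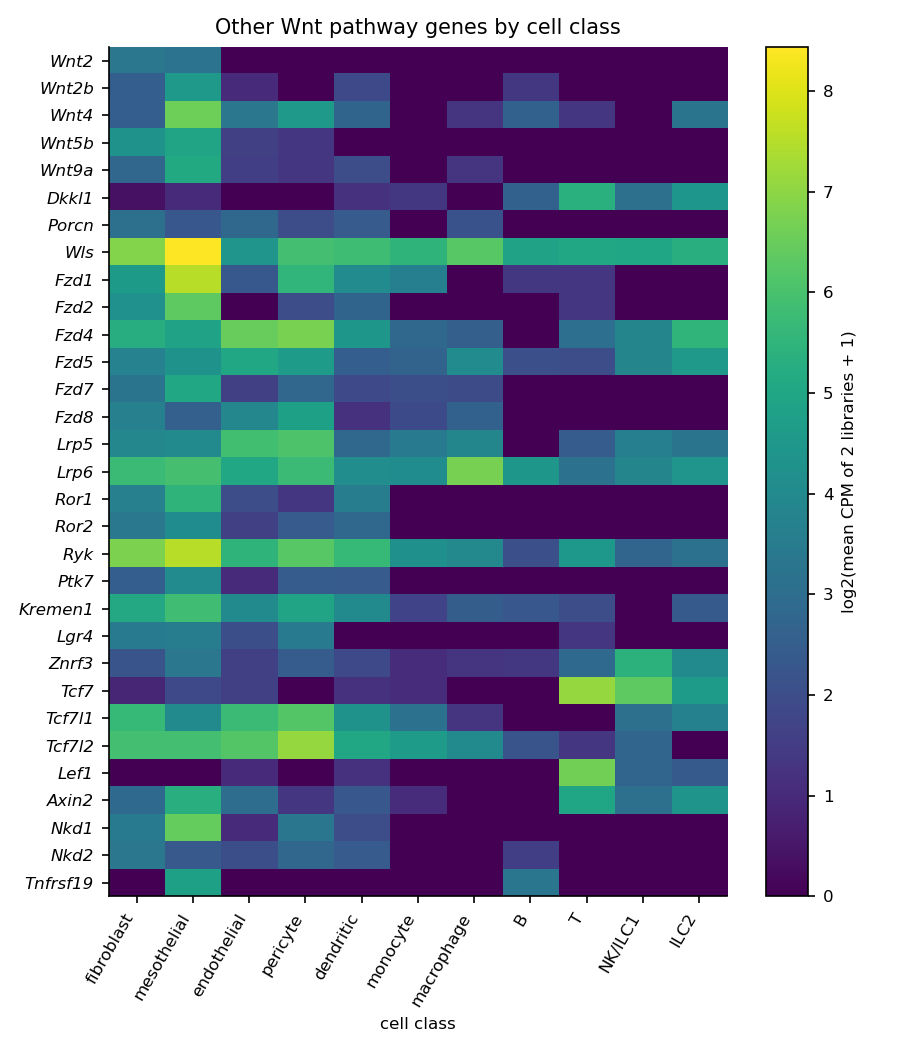
Mean level of the 2 libraries, as log2(CPM + 1) on the colour scale, for 31 other Wnt pathway genes with at least 40 UMIs (rows) in the 11 classes (columns). Of the genes that relay the signal inside the cell, only Tcf7, Lef1, Tcf7l1 and Tcf7l2 are drawn. Others with as many UMIs, such as Csnk1a1 and Axin1, are left out. Wnt4, Wls, Fzd1, Axin2 and Nkd1 are bright in the mesothelial column, and Tcf7 and Lef1 in the T column.

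Among the fibroblast-like clusters, 19 of the 76 further genes could be tested, and edgeR called 4 differences between a cluster and the mean of the others. Calls among the 19 numbered 1 in the Cxcl14-led, 0 in the Has1-led, 2 in the Pi16-led and 1 in the Mfap4-led cluster. The shares called over all 5871 genes were 15.6%, 2.10%, 22.5% and 5.76% in the same order. Fzd2 was higher in the Mfap4-led cluster (log2 fold change 1.83, SE 0.49, adjusted p = 0.0161), and Csnk1a1 was higher in the Cxcl14-led cluster (0.56, SE 0.12, adjusted p = 8.89e-04) and lower in the Pi16-led one (-0.78, SE 0.13, adjusted p = 1.60e-05), as was Gsk3a (-0.63, SE 0.21, adjusted p = 0.0243).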

How the data were processed

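Single-cell RNA was measured in whole mesentery of 2 mice. The authors deposited whole, unnormalized UMI counts for each gene and barcode. The submitters' processing notes name Cell Ranger, with no version, and the build mm10. The barcode suffix, 1 or 2, was matched by number to the mouse. Of 3204 barcodes, 61 with under 200 genes or over 10% mitochondrial UMIs were removed, then 43 doublets by Scrublet (39 and 4, so removal differed between libraries). Cells were clustered in scanpy 1.11.5 from 2000 variable genes without the 85 Wnt genes, 30 components, 15 neighbours and Leiden resolution 1.0. A cluster took the class with the highest mean marker fold, with at least 3 markers above 2-fold; 3 of 147 markers were unmatched, and 1 cluster stayed unnamed. Counts were summed per library and class (22 sums) or fibroblast-like cluster (8 sums) and tested with edgeR 4.0.16 in R 4.3.3 (TMM, filterByExpr, library as a block, Benjamini-Hochberg adjustment), with 10 and 3 residual degrees of freedom. Library is a block because each animal gave every class. Deviations of classes within a library correlated between -0.0035 and 0.185, over 55 pairs. Intervals are exact Poisson for CPM and exact Clopper-Pearson for shares at 95%, and cover counting error only; a count of 0 is given the limit of 3 counts.

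The genes named are the 9 followed here, up to 6 of each other Wnt list by adjusted p, genes described as detected or not, and the 3 genes most like each of the 9. The 9 genes, the lists, the tests and the alternatives were chosen with earlier results of these data known. Alternatives were DESeq2 1.42.0 size factors and its Wald test, no replicate block, no filter on low counts, leaving out each library, Leiden resolutions of 0.5 and 2.0, a stricter cell filter (500 genes, 5% mitochondrial UMIs), no doublet removal, the Wnt genes kept in the clustering, a sum over the cells of all other classes, and thinning to 500, 2000 or no fixed number of UMIs. A fit without barcodes of other classes holding at least 0.3% of UMIs in fibroblast markers was added after the data were seen. Both fits were tested on simulated data. Promoters are from RefSeq; gene models of GENCODE M21 on GRCm38 were not otherwise used.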

Additional observations from a re-analysis of the deposited data

Results flagged for a closer look

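The unnamed cluster of 26 cells (5 in library 1 and 21 in library 2) entered no comparison, and UMIs of 3 of the genes were found in it above the limit of 3 counts. It held 8 Rspo3 UMIs, at 41.8 and 67.3 CPM in libraries 1 and 2, 8 Sfrp1 UMIs, at 0 and 76.9 CPM, and 4 Rspo1 UMIs, at 41.8 and 28.8 CPM. Its leading genes included Il13, Arfgap3 and Rspo3 itself. All 26 cells held at least 0.3% of their UMIs in the 10 fibroblast markers, and these markers summed to 15439 and 13509 CPM. T cell markers summed to 711 and 394 CPM, against 9.18 and 7.91 CPM in fibroblast-like cells. ILC2 markers summed to 502 and 1239 CPM, against 153 and 174 CPM. The 10 mesothelial markers summed to 0 and 9.61 CPM in it. Whether these barcodes hold more than 1 cell type was not tested.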

How the results depend on the processing

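Across the alternatives that gave a test, 247 of 260 log2 fold changes of the 9 genes kept their direction and their side of the threshold, 10 kept only the direction and 3 reversed. The 3 were Rspo1 (-2.03), Sfrp2 (-1.52) and Dkk3 (-1.24) against the other classes when these were summed over cells, which weights every class by its UMIs. DESeq2's Wald test called fewer genes between the fibroblast-like clusters: 353 in place of 913 for the Cxcl14-led, 33 in place of 123 for the Has1-led, 559 in place of 1320 for the Pi16-led and 141 in place of 338 for the Mfap4-led cluster; the cause was not tested. With no replicate block, the Has1-led cluster had 42 calls, Rspo1 lost its call in the Mfap4-led cluster, and no other call among the 9 genes changed. Against the other classes, Sfrp4 and Dkk3 were not called by DESeq2 (adjusted p = 0.384 and 0.0687), nor Dkk3 by edgeR with the stricter cell filter (adjusted p = 0.0613). Leaving out a library gave values with no test: for fibroblast-like against mesothelial-like cells, Rspo3 had a log2 fold change of 4.07 without library 1 and 7.48 without library 2, Sfrp1 6.24 and 9.14, Sfrp2 -4.44 and -3.14, Rspo1 -4.22 and -4.38, Dkk3 -3.22 and -3.16, Wnt11 1.34 and 0.77, and Wnt5a 0.39 and 0.08. Mesothelial-like cells of library 1 held 0 Rspo3 and Sfrp1 UMIs, so those fitted values are no bounds. When all other cells were summed, 46.6% of the calls against them were higher, in place of 72.2%; with no filter on low counts 83.3% were, and in the Mfap4-led cluster 55.8% in place of 69.8%. At resolution 0.5 no dendritic-like class was formed, and the comparisons between clusters were not recomputed under other clusterings or cell filters. Thinning sets the shares: Rspo1 was found in 34.2%, 55.6%, 82.3% and 95.1% of mesothelial-like cells at 500, 1000, 2000 and no fixed number of UMIs.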

Other observations

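Genes outside the 9 marked other classes. Wnt4 was also found in pericyte-like cells, at 26.9 and 17.6 CPM in libraries 1 and 2, where fibroblast-like cells had 3.44 and 6.08 CPM. The TCF/LEF factors Tcf7 and Lef1, which carry Wnt signals in T cells, were highest in T-like cells, at 162 and 109 CPM and at 146 and 51.4 CPM, with 3 and 0 UMIs in fibroblast-like cells. Axin2 was at 32.4 and 27.2 CPM in T-like cells, against 38.1 and 37.7 CPM in mesothelial-like cells. Dkkl1, a distant relative of the Dickkopf genes, gave 26 of its 40 UMIs in T-like cells. No UMI was found in either library of Wnt3, Wnt3a, Wnt7a, Wnt8a, Wnt8b, Wnt9b, Rspo2, Rspo4, Dkk4, Notum, Sost, Sostdc1, Fzd9 or Lgr6. None of these differences was tested.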
